A study of Mus musculus with 19 samples.

Results

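Klotho, the phosphate transporters of the kidney and the enzymes and receptors that handle vitamin D were followed through 3 days of fasting. The genes were listed by name: Kl, Fgfr1, Cyp27b1, Cyp24a1, Slc34a1, Slc34a3, Slc20a1, Slc20a2, Lrp2 and Cubn. Of these 10 genes, 8 had a probe set annotated to them alone, with 15 probe sets in all, among 17097 genes and 28898 probe sets that carry 1 gene name. Slc34a1 and Lrp2 were not analysed here, and 1 probe set that names Slc20a2 together with Smim19 was left aside. Each mouse gave 1 Affymetrix HT MG-430 PM array of whole-kidney RNA, and none of the 19 male mice had undergone renal ischemia-reperfusion injury. The young-lean animals, C57BL/6J of 10 to 14 weeks with a weight of 22 to 25 g, comprised 5 ad libitum fed and 4 fasted mice. The aged-overweight animals, F1-hybrids of FVB and C57BL/6J with a mean age of 73 weeks and a mean weight near 47 g, comprised 5 ad libitum fed and 5 fasted mice. Fasted mice had water only for 3 days. Strain, age and body weight changed together, so their parts in any difference between the ages cannot be told apart. The deposited log2 levels carry an offset between the ages (array medians of 4.15 to 4.21 in young and 3.44 to 3.49 in aged mice), and levels were therefore set side by side within an age only.

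Phosphate that is filtered by the glomerulus is taken back in the proximal tubule through sodium-dependent transporters in the brush border. The bone hormone FGF23 reduces this uptake and the making of active vitamin D, and it acts through FGF receptors that need Klotho as co-receptor. Klotho is most abundant in the distal convoluted tubule. Vitamin D bound to its carrier protein enters proximal tubule cells through megalin and cubilin, and is then activated by the product of Cyp27b1 or inactivated by that of Cyp24a1.

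Fasting lowered Kl and Slc34a3 at both ages, and raised Slc20a1 in young mice. Kl was 1.77-fold lower in young fasted and just under 1.5-fold lower in aged fasted mice, and Slc34a3 was 3.44-fold and 2.35-fold lower. In young mice 4 of the 15 probe sets passed an adjusted p of 0.05 (limma, Benjamini-Hochberg over 45141 probe sets), 1 higher and 3 lower, while 10.1% of all probe sets passed as higher and 9.54% as lower. In aged mice 2 of 15 passed, both lower, against 3.16% of all probe sets higher and 3.32% lower. With a fold change of at least 1.5 as a further condition, 3 of 15 were called in young and 1 of 15 in aged mice, where 5.31% and 1.89% of all probe sets were called. The median log2 fold change over the 15 probe sets was 0.14 in young and -0.05 in aged mice, beside 0.0033 and 0.00033 over all probe sets. The probe sets of Cyp27b1, Cyp24a1, Slc20a2, Fgfr1 and Cubn passed at neither age. At an unadjusted p of 0.05, 5 of the 15 probe sets passed at each age, where 30.2% of all probe sets passed in young and 18.7% in aged mice. In bulk kidney RNA, fewer cells of a type and less RNA per cell cannot be told apart.

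**Figure D1:**
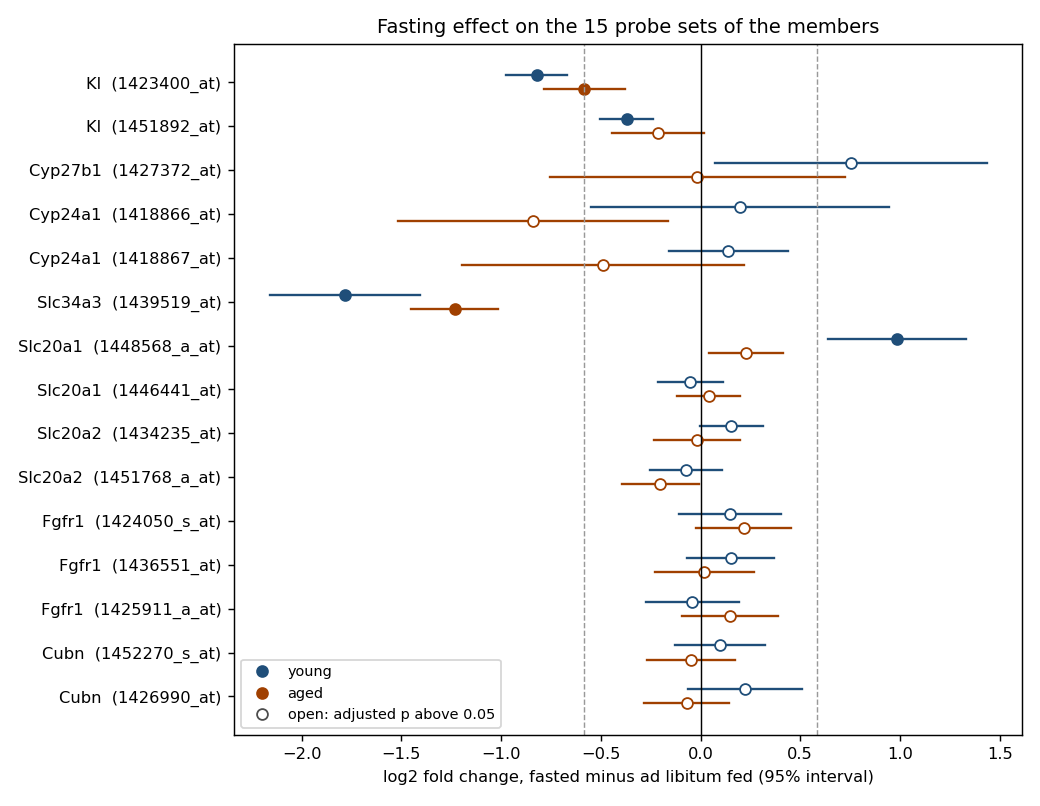
Log2 fold change of fasted against ad libitum fed mice for the 15 probe sets of the 8 genes, in young (blue) and aged (brown) mice, with 95% intervals from limma. Filled points passed an adjusted p of 0.05, and dashed lines mark a 1.5-fold change. Filled points stand at Kl, Slc34a3 and Slc20a1.

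The promoters of the 3 genes that passed in young mice are shown because these are the members whose transcripts moved. Each line gives the 250 bases before the RefSeq start on GRCm38.p6, read 5′ to 3′ in the direction of the gene, with matches to 6 short motifs in capitals.
Kl (chr5:150952357-150952606, plus strand): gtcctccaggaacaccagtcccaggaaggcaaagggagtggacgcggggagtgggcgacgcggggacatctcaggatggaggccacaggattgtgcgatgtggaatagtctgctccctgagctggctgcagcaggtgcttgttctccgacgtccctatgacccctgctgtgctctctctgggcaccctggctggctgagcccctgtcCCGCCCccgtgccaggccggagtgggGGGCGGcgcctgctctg
Slc34a3 (chr2:25234235-25234484, minus strand): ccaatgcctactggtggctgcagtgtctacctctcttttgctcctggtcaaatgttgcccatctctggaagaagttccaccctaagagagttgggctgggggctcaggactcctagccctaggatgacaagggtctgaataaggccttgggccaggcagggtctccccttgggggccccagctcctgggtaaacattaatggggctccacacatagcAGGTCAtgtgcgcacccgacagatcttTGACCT
Slc20a1 (chr2:129198523-129198772, plus strand): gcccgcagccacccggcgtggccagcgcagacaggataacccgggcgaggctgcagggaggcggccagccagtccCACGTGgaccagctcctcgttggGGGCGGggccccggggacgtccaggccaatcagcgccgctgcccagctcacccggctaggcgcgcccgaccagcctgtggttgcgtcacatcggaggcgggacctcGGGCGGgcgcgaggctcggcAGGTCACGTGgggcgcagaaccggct
The motifs were AGGTCA and AGTTCA, both bound by nuclear receptors such as the vitamin D receptor and its partners, GGGCGG (the GC box), CACGTG (the E-box), TATAAA (the TATA box) and TGACGTCA (the cAMP response element), each read on both strands. The Kl window has a GC content of 66.8% and holds 2 GGGCGG matches, on opposite strands. The Slc34a3 window, with a GC content of 56.4%, holds 2 AGGTCA matches on opposite strands, which begin 33 and 6 bases before the start. The Slc20a1 window (75.2% GC, the outermost of 2 starts) holds 2 GGGCGG, 2 CACGTG and 1 AGGTCA, and its AGGTCA overlaps a CACGTG. Among 32851 such windows of 27025 genes, 14% hold AGGTCA, 11.8% AGTTCA, 32.7% GGGCGG, 6.02% CACGTG, 12.4% TATAAA and 1.55% TGACGTCA. CACCC, counted but left in lower case, has 1 match in the Kl window and 2 in each of the others, and 52% of all windows hold it. These matches describe letters and are not binding sites.

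The 19 kidneys carried the markers of their tissue, and some also carried transcripts of liver or brown fat. Umod and Slc12a1, which mark the thick ascending limb, had mean levels of 12.80 and 11.84 over all 19 arrays. They belong to 7 other kidney markers, whose summed level was 14.11 to 14.20 in fed and 13.98 to 14.08 in fasted young mice. In aged mice this sum was 13.57 to 13.75 when fed and 13.49 to 13.72 when fasted. The median of the 7 was 7.25 to 7.58 in fed and 7.39 to 7.57 in fasted young mice. It was 8.34 to 9.16 in fed and 7.24 to 8.78 in fasted aged mice. The summed level of 9 proximal tubule markers, on the log2 scale, was 14.88 to 14.99 in fed and 14.95 to 15.06 in fasted young mice. In aged mice it was 14.81 to 14.97 when fed and 14.87 to 15.01 when fasted. Aged fasted mouse 33 carried liver transcripts, with albumin (Alb) at 12.58 against 5.41 to 7.33 in the other aged fasted mice, and the summed level of 9 liver markers spanned 10.91 to 13.95 in aged fasted against 11.55 to 11.74 in aged ad libitum fed mice. The brown adipocyte transcript Cidea stood at 8.56, 6.51, 6.71 and 3.25 in young fasted mice 339, 340, 343 and 344 against 2.84 to 3.91 in young fed mice, so 3 of the 4 fasted mice lay above the fed range. Ucp1, the defining brown adipocyte gene, was highest in mice 343 (5.65) and 339 (4.93), against 3.43 to 3.86 in young fed mice. The summed level of 8 brown adipocyte markers was 10.92 to 11.37 in fed and 11.01 to 12.32 in fasted young mice. In aged mice it was 10.54 to 11.59 when fed and 10.84 to 12.05 when fasted. The median of the 8 was 4.52 to 5.44 in fed and 3.90 to 7.96 in fasted young mice. In aged mice this median was 3.97 to 7.34 when fed, highest in mice 40 (7.34) and 36 (7.07), and 3.42 to 6.99 when fasted. Of the 8, 3 passed as higher and 1 as lower in young mice, and 1 and 1 in aged mice. Over all probe sets it was 10.1% and 9.54% in young and 3.16% and 3.32% in aged mice. The part of brown fat in the results was not tested beyond leaving out arrays. The 7 adrenal cortex markers measured, from a gland next to the kidney, did not pass at either age by limma. At an unadjusted p of 0.05 it was also 0 of 7, where 30.2% of all probe sets passed in young and 18.7% in aged mice. The median level of these markers was 3.21 to 3.42 in young and 2.82 to 3.17 in aged mice, below the array medians. Changes at such low levels are hard to see. Their summed level was 6.30 to 6.41 in fed and 6.34 to 6.40 in fasted young mice. In aged mice it was 5.92 to 6.09 when fed and 5.93 to 6.00 when fasted. Without mice 33 and 339 together, 3 of 15 member probe sets passed in aged and 4 of 15 in young mice. With all arrays the counts were 2 and 4. In those fits with all arrays, 3.16% of all probe sets passed as higher and 3.32% as lower in aged mice, and 10.1% and 9.54% in young mice. The probe set that came to pass in aged mice was that of Slc20a1 (0.29, adjusted p = 0.0453 by limma).

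Kl encodes Klotho, the co-receptor that lets FGF receptors respond to FGF23. At its brightest probe set (1423400_PM_at) the levels in young mice were 11.07, 11.21, 11.22, 10.93 and 11.11 when fed ad libitum, and 10.28, 10.37, 10.25 and 10.25 when fasted. In aged mice they were 10.48, 10.56, 10.44, 10.24 and 10.68 when fed, and 9.64, 9.99, 9.96, 9.93 and 9.94 when fasted. Every fasted mouse lay below every fed mouse of its age, and the fasted young mice lay closer together than any other group. The fall on the log2 scale was -0.82 ± 0.07 (SE, adjusted p = 1.48e-05) in young and -0.58 ± 0.09 (adjusted p = 0.00263) in aged mice by limma. The aged fall stands just short of the 1.5-fold condition and was therefore not called. Mouse 33, the array with liver transcripts, was the lowest of the aged fasted mice, and without it the aged fall was -0.52 (adjusted p = 0.00429). The effects differed between the ages by 0.24 ± 0.12 (adjusted p = 0.403 for the difference), with a 95% interval of -0.01 to 0.49.

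A dimmer Kl probe set (1451892_PM_at) moved the same way in young mice. Its levels were 4.79 to 4.99 in fed and 4.50 to 4.62 in fasted young mice, and the groups did not overlap. The change was -0.37 ± 0.06 (adjusted p = 0.00124) in young and -0.21 ± 0.11 (adjusted p = 0.314) in aged mice, where fed (4.14 to 4.64) and fasted (4.02 to 4.44) mice overlapped. The genes whose pattern was most like that of the bright Kl probe set were Gpc4, a glypican (Pearson r = 0.975), B4galt5, a galactosyltransferase (0.965), and 4931406C07Rik (0.964), over 19 arrays with the mean of each age taken off and among 10401 genes above the median level. These arrays share the contrast between fed and fasted mice, so the correlations are a description.

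Fgfr1 encodes a receptor that pairs with Klotho. At its brightest probe set (1424050_PM_s_at) young mice had 6.70, 7.28, 7.19, 6.95 and 7.14 when fed and 7.20, 7.17, 7.02 and 7.40 when fasted. Aged mice had 6.52, 6.13, 6.62, 6.11 and 6.44 when fed and 6.65, 6.49, 6.52, 6.79 and 6.46 when fasted. Fed and fasted mice overlapped at both ages. The change was 0.15 in young (95% interval -0.11 to 0.40, adjusted p = 0.465) and 0.22 in aged mice (-0.02 to 0.45, adjusted p = 0.324). The other probe sets (1436551_PM_at and 1425911_PM_a_at) gave changes between -0.04 and 0.15, none of which passed.

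**Figure D2:**
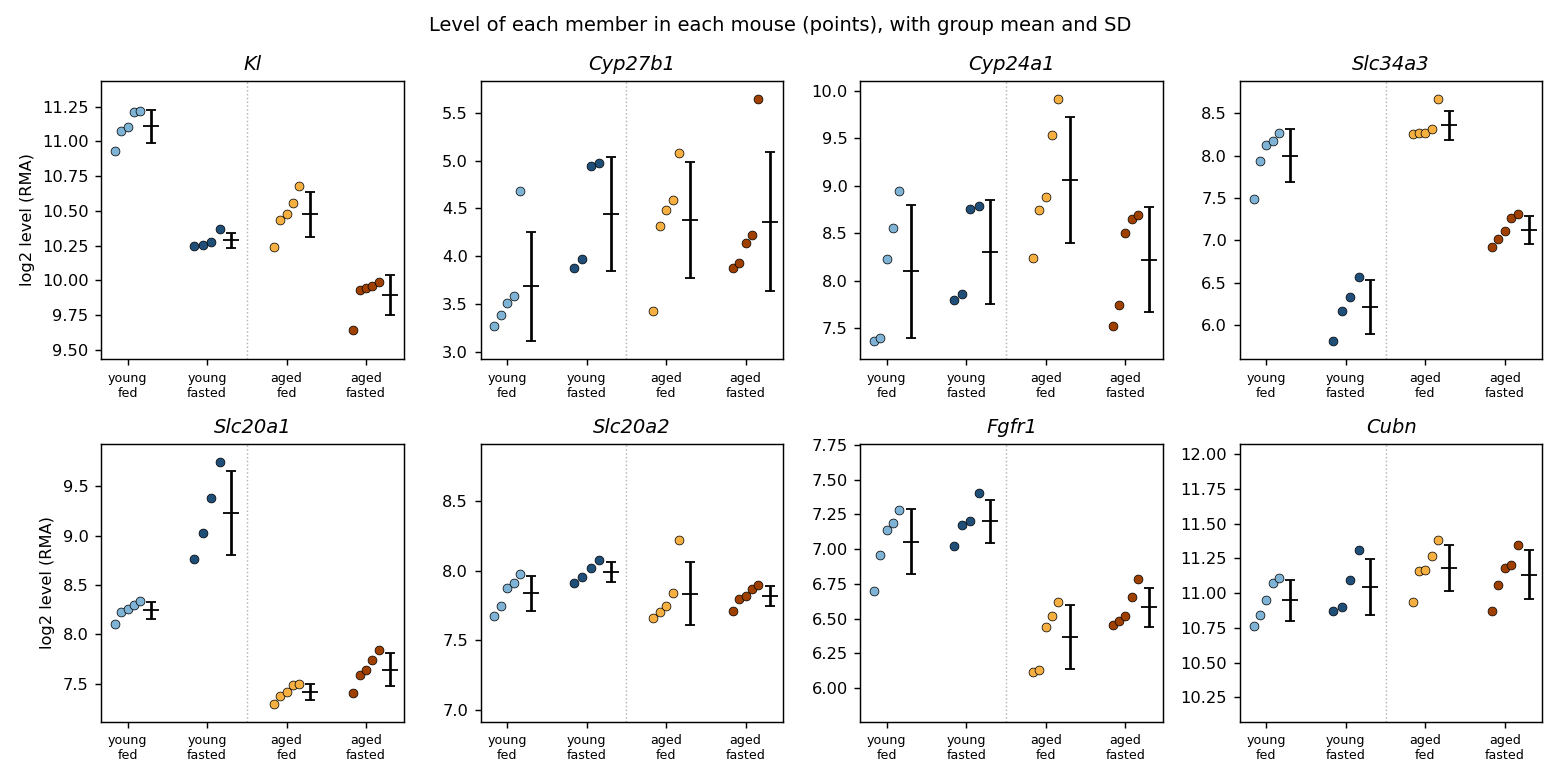
Log2 level of the 8 genes in each mouse at the brightest probe set, with the group mean and SD as bars, for young and aged mice fed ad libitum or fasted for 3 days. Fed and fasted points are separate at both ages for Kl and Slc34a3 and in young mice for Slc20a1. The scale differs between panels, and the deposited levels carry an offset between young and aged mice.

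Slc34a3 encodes NaPi-IIc, a sodium-phosphate cotransporter of the proximal tubule brush border, and it fell most among the members at both ages. Young mice had levels of 8.18, 7.94, 8.27, 7.49 and 8.13 when fed and 6.33, 6.57, 6.16 and 5.81 when fasted (1439519_PM_at). Aged mice had 8.67, 8.26, 8.32, 8.27 and 8.26 when fed and 7.01, 6.92, 7.12, 7.31 and 7.26 when fasted. The lowest fed mouse stood above the highest fasted mouse by a wide gap at each age. The change was -1.78 ± 0.17 (adjusted p = 3.5e-05) in young and -1.23 ± 0.10 (adjusted p = 1.63e-05) in aged mice. The difference between these effects was 0.55 ± 0.21, with a 95% interval of 0.12 to 0.98, and did not pass (adjusted p = 0.209). The aged fall was -1.20 without mouse 33, and the young fall was -1.82 without mouse 339. Among the proximal tubule markers, Slc5a2 (the glucose transporter SGLT2 of the early proximal tubule) also fell, by 1.09 in aged and 0.89 in young mice, whereas Slc13a3 (a dicarboxylate transporter) rose by 0.64 and 0.76. In aged mice 2 of 9 such markers passed as higher and 2 as lower, and in young mice 1 and 2. The shares over all probe sets were 3.16% and 3.32% in aged and 10.1% and 9.54% in young mice. The part of cell composition in the fall of Slc34a3 was not tested.

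Slc20a1 encodes PiT-1, a sodium-phosphate cotransporter found in most cell types. At its bright probe set (1448568_PM_a_at) young mice had 8.33, 8.23, 8.26, 8.30 and 8.11 when fed and 8.76, 9.03, 9.38 and 9.75 when fasted. Aged mice had 7.48, 7.41, 7.50, 7.38 and 7.30 when fed and 7.40, 7.59, 7.74, 7.64 and 7.84 when fasted. All young fasted mice lay above the fed ones and were spread much more widely, and in aged mice only mouse 33 lay within the fed range. The rise was 0.99 ± 0.16 (1.98-fold, adjusted p = 0.00117) in young mice and the change was 0.23 ± 0.08 (adjusted p = 0.153) in aged mice. Without mouse 33 the aged change was 0.29 and passed (adjusted p = 0.0453).

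The aged effect on Slc20a1 was smaller than the young effect by -0.76 ± 0.18 (adjusted p = 0.037 for the difference). This was the member probe set that passed the test between the ages, 1 of 15, where 1.95% of all probe sets passed. The call was lost in 12 of 19 fits that left out 1 array, namely without young fed mouse 346, 347, 348 or 350, young fasted 343 or 344, aged fed 34, 36 or 37, or aged fasted 33, 38 or 41, with adjusted p up to 0.0706 and differences between -0.91 and -0.58 over all 19, and also with the unmoderated test (adjusted p = 0.0899). The other Slc20a1 probe set (1446441_PM_at), near the lowest levels on the arrays at 2.43 to 3.15, showed changes of -0.05 in young and 0.04 in aged mice and neither passed. With the mean of the pair of probe sets the young rise was 0.47 (adjusted p = 0.00852), and the difference of -0.33 did not pass. Slc20a2 encodes PiT-2, the related transporter. Its bright probe set (1434235_PM_at) ranged from 7.67 to 7.98 in fed and 7.91 to 8.08 in fasted young mice, and from 7.66 to 8.22 in fed and 7.71 to 7.90 in fasted aged mice. These groups overlapped, and the changes were 0.15 (95% interval -0.0049 to 0.31, adjusted p = 0.179) and -0.02 (-0.23 to 0.20, adjusted p = 0.957). A dim Slc20a2 probe set (1451768_PM_a_at) changed by -0.07 in young and -0.20 in aged mice, and neither passed.

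Cyp27b1 encodes the kidney enzyme that makes active vitamin D. Young mice had 4.69, 3.39, 3.59, 3.51 and 3.27 when fed and 4.94, 4.97, 3.97 and 3.88 when fasted (1427372_PM_at). Aged mice had 4.48, 3.43, 5.08, 4.58 and 4.31 when fed and 3.93, 3.88, 4.23, 4.14 and 5.64 when fasted. In young mice all fed animals except mouse 346 lay below the fasted ones, and in aged mice the groups overlapped. The change was 0.75 ± 0.31 in young mice (95% interval 0.07 to 1.43, adjusted p = 0.123) and -0.02 ± 0.34 in aged mice (-0.76 to 0.73, adjusted p = 0.99), and neither passed. Without young fed mouse 346 the young change was 1.00 and passed (adjusted p = 0.018). The probe set is dim, with young fed mice other than 346 at 3.27 to 3.59, below the young array medians of 4.15 to 4.21. The effects differed by -0.77 ± 0.51 (adjusted p = 0.567). The genes most like Cyp27b1 in pattern were Wdtc1 (r = 0.692), Inpp4b (0.684) and Kbtbd11 (0.681) over the 19 arrays. They are the highest among 10401 genes, so these correlations too are a description. None of them passed at either age by limma (adjusted p of 0.112 to 0.98).

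Cyp24a1 encodes the hydroxylase that breaks down active vitamin D. At 1418866_PM_at young mice had 8.23, 7.37, 7.40, 8.95 and 8.55 when fed and 7.80, 7.86, 8.76 and 8.78 when fasted. Aged mice had 8.24, 9.53, 8.88, 8.74 and 9.91 when fed and 8.65, 7.52, 8.69, 7.74 and 8.50 when fasted. Mice of one group differed by more than 1 log2 unit in all groups but the young fasted, and fed and fasted animals overlapped at both ages. The change was 0.20 ± 0.34 in young (95% interval -0.55 to 0.95, adjusted p = 0.773) and -0.84 ± 0.31 in aged mice (95% interval -1.52 to -0.16, adjusted p = 0.154). The dimmer probe set (1418867_PM_at) gave 0.14 and -0.49, and the difference between the ages was -1.04 ± 0.50 (adjusted p = 0.373) at the bright one.

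Cubn encodes cubilin, the receptor that takes up vitamin D-binding protein and albumin together with megalin. At 1452270_PM_s_at young mice had 10.77, 11.07, 11.11, 10.84 and 10.95 when fed and 10.87, 11.09, 10.90 and 11.31 when fasted. Aged mice had 11.27, 11.17, 11.38, 10.94 and 11.16 when fed and 10.87, 11.34, 11.18, 11.06 and 11.21 when fasted. The groups overlapped at both ages. The changes were 0.10 in young (95% interval -0.13 to 0.32) and -0.05 in aged mice (-0.27 to 0.17), with adjusted p of 0.604 and 0.859. At the other Cubn probe set (1426990_PM_at) they were 0.22 (adjusted p = 0.29) and -0.07 (adjusted p = 0.785).

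Among the genes that work with cubilin and megalin in endocytosis, the changes that passed were falls. Of 14 further genes of endocytosis, chosen with earlier results of these data known, 12 were measured. Each was taken at its brightest probe set, while the shares cover all probe sets, dim ones included. Of the 12, 3 passed as lower in aged and 6 in young mice, where 3.32% and 9.54% of all probe sets did. The median log2 fold changes of the 12 were -0.21 and -0.23. None passed as higher, and 0 in aged and 1 in young mice were higher at an unadjusted p of 0.05, as were 9.86% and 15.8% of all probe sets. Ehd1, which recycles endocytosed receptors, fell by 0.61 in aged (adjusted p = 0.000553) and 0.53 in young mice (adjusted p = 0.000413). Clcn5, the endosomal chloride transporter that is mutated in Dent disease, fell by 0.35 in aged (adjusted p = 0.00582) and 0.68 in young mice (adjusted p = 7.73e-05), where the mean of its probe sets gave -0.40. Lrpap1, a chaperone of megalin, fell by 0.40 and 0.51 at its brightest probe set, but with the mean of its probe sets the values of -0.20 and -0.17 did not pass. In young mice Amn, the membrane anchor of cubilin, fell by 0.41 (adjusted p = 0.00608). Dab2 and Gipc1, adaptors of megalin named after their values were seen, had young changes of -0.33 and -0.32, which passed.

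In the distal nephron, where Klotho is most abundant, the calcium transport genes Slc8a1, Calb1 and Pvalb fell at both ages. Of 10 genes 8 were measured, with 3 lower in aged and 5 lower in young mice and medians of -0.08 and -0.36. None passed as higher, against 1 in aged and 2 in young mice at an unadjusted p of 0.05. Over all probe sets, 3.32% passed as lower in aged and 9.54% in young mice. At the unadjusted p, 9.86% and 15.8% were higher. Slc8a1, the sodium-calcium exchanger of the basolateral membrane, had levels of 9.22, 9.30, 9.43, 9.37 and 9.30 in fed and 7.31, 8.03, 7.28 and 7.60 in fasted young mice. In aged mice it had 7.15, 7.16, 7.12, 7.69 and 8.30 when fed and 5.34, 4.56, 5.83, 5.12 and 5.06 when fasted. The groups were separate at both ages, with changes of -1.77 (adjusted p = 6.25e-06) and -2.30 (adjusted p = 0.000176) at the brightest probe set, and of -1.23 and -1.34 with the mean of its probe sets. Calb1, the calcium buffer calbindin, changed by -0.94 (adjusted p = 5.92e-06) in young and -0.99 (adjusted p = 0.00227) in aged mice. Pvalb, the parvalbumin of the early distal convoluted tubule, changed by -1.01 (adjusted p = 7.68e-05) and -1.13 (adjusted p = 0.00174). S100g, the small vitamin D-dependent calbindin, fell by 0.44 in young mice (adjusted p = 0.00036) and had an aged change of -0.06 (adjusted p = 0.844). Atp2b1, a plasma membrane calcium pump, fell by 0.28 in young mice, had an aged change of 0.22, and differed between the ages by 0.50 (adjusted p = 0.0434). That difference did not pass in 14 of 19 fits without one array (adjusted p up to 0.0987), with the unmoderated test (0.077) or with quantile normalization (0.0526).

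The sodium-chloride cotransporter Slc12a3, the defining marker of the distal convoluted tubule, was looked at beside these genes after its values were seen. It ranged from 10.74 to 11.12 in fed and 10.89 to 11.14 in fasted young mice, and from 9.94 to 10.46 in fed and 9.84 to 10.02 in fasted aged mice. Its changes of 0.09 (adjusted p = 0.591) and -0.19 (adjusted p = 0.328) did not pass, and fed and fasted mice overlapped. Of 7 markers of this segment measured, Pvalb and Calb1 passed as lower at both ages and the other 5 did not pass. Over all probe sets, 3.32% passed as lower in aged and 9.54% in young mice. The summed level of the 7, Pvalb and Calb1 among them, was 13.12 to 13.28 in fed and 12.78 to 12.86 in fasted young mice. In aged mice this sum was 11.74 to 12.27 when fed and 11.53 to 11.64 when fasted. The median level of the 7 was 8.14 to 8.41 in fed and 8.14 to 8.49 in fasted young mice. In aged mice that median was 7.82 to 8.27 when fed and 7.62 to 7.86 when fasted. The part of segment composition in the fall of Kl was not tested.

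**Figure D3:**
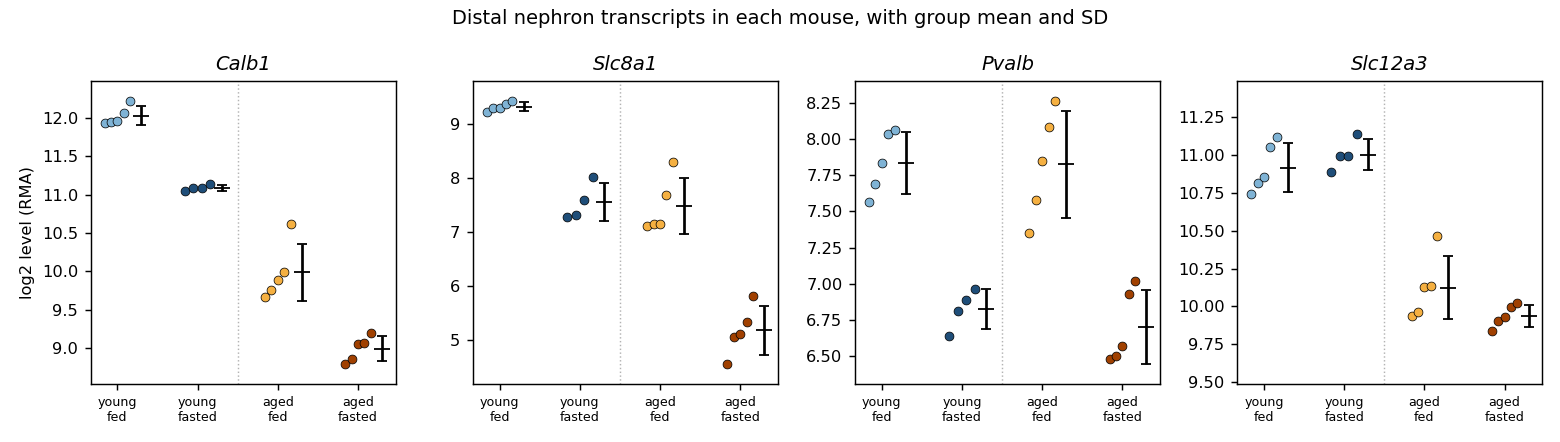
Log2 level of Calb1, Slc8a1, Pvalb and Slc12a3 in each mouse, with the group mean and SD as bars, in young and aged mice fed ad libitum or fasted for 3 days. Fed and fasted points are separate at both ages for the first 3 genes and overlap for Slc12a3.

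In the FGF23 pathway, 15 of 15 further genes were measured. In aged mice 1 passed as higher and 2 as lower, in young mice 2 and 3, and the medians were 0.04 and -0.04. Beside these, 3.16% of all probe sets passed as higher and 3.32% as lower in aged mice, and 10.1% and 9.54% in young mice. Fam20c, the secretory kinase that phosphorylates FGF23, fell by 0.60 in aged (adjusted p = 0.00873) and 0.66 in young mice (adjusted p = 0.0017). Galnt3, the enzyme whose sugar shields FGF23 from cleavage, fell by 0.46 (adjusted p = 0.00598) and 0.58 (adjusted p = 0.00063). Fgfr3 rose by 0.58 in young mice (adjusted p = 0.00224) with an aged change of 0.25. With the mean of their probe sets the young changes were -0.37 for Galnt3 and 0.36 for Fgfr3, and both passed. Fgfr4, named after its values were seen, fell by 0.32 in young mice (adjusted p = 0.0198). Egr1 and Dusp6 respond to signalling through ERK, the kinase below FGF receptors. Egr1 rose by 1.90 ± 0.53 in young mice (adjusted p = 0.0254), a call lost without mouse 346, 347, 348, 340, 343 or 344, with the unmoderated test (0.114) and with robust fitting on a variance trend (0.0914). Its aged change was -0.04. Dusp6 rose by 0.40 in aged mice (adjusted p = 0.0142) against -0.19 in young mice (adjusted p = 0.236), and the effects differed by 0.59 (adjusted p = 0.0269). The difference did not pass without mouse 350, 339, 340 or 41 (adjusted p up to 0.0644) or with the unmoderated test (0.0562).

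**Figure D4:**
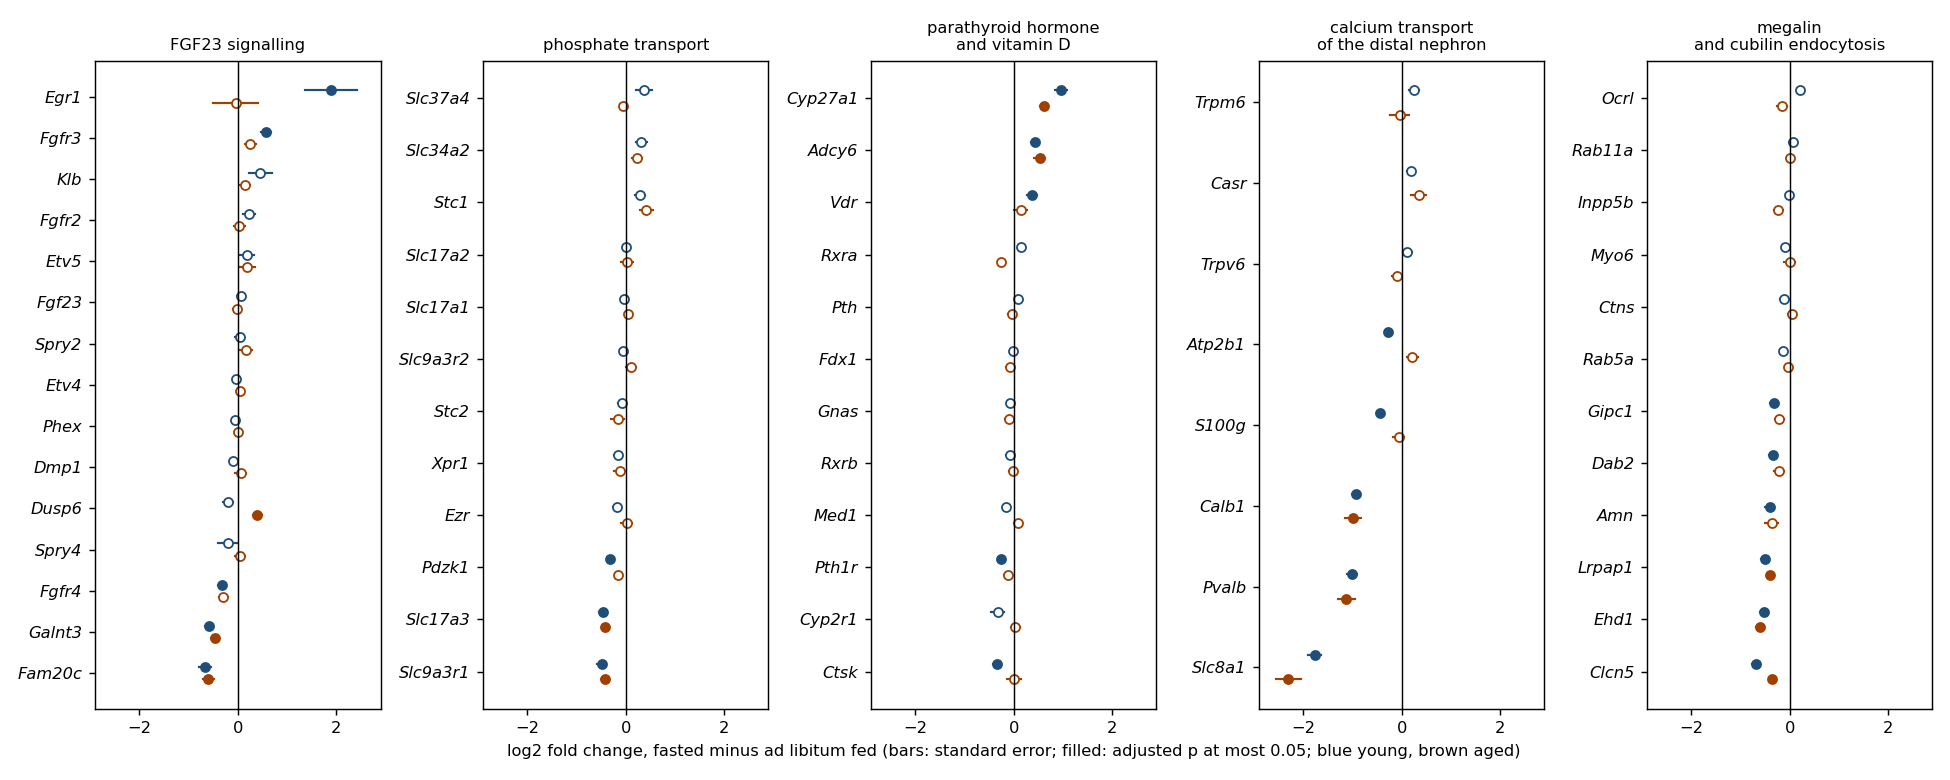
Log2 fold change of fasted against ad libitum fed mice for the further genes of 5 lists, in young (blue) and aged (brown) mice, with the standard error as bars. Filled points passed an adjusted p of 0.05. The longest shifts to the left are those of Slc8a1, Pvalb and Calb1, and those to the right are Egr1 and Cyp27a1 in young mice.

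Around the phosphate transporters, 12 of 14 further genes were measured, with 2 lower in aged and 3 lower in young mice and medians of -0.02 and -0.06. None passed as higher, against 2 in aged and 3 in young mice at an unadjusted p of 0.05. Over all probe sets, 3.32% passed as lower in aged and 9.54% in young mice. At the unadjusted p, 9.86% and 15.8% were higher. Slc9a3r1, the scaffold NHERF1 that holds phosphate transporters at the brush border, fell by 0.42 in aged (adjusted p = 0.0108) and 0.49 in young mice (adjusted p = 0.00146). Slc17a3, an organic anion transporter first described as a phosphate transporter, fell by 0.41 (adjusted p = 0.00623) and 0.47 (adjusted p = 0.000783). Pdzk1, a related scaffold, fell by 0.31 in young mice (adjusted p = 0.00212) and had an aged change of -0.15 (adjusted p = 0.27).

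Of 16 further genes of parathyroid hormone and vitamin D handling 12 were measured. In aged mice 2 passed as higher and none as lower (1 at an unadjusted p of 0.05, beside 8.87% of all probe sets). In young mice 3 passed as higher and 2 as lower. The medians were -0.0046 in aged and -0.04 in young mice. Over all probe sets, 3.16% passed as higher and 3.32% as lower in aged mice, and 10.1% and 9.54% in young mice. Cyp27a1, a mitochondrial sterol hydroxylase that can also hydroxylate vitamin D, rose by 0.62 in aged (adjusted p = 0.000716) and 0.96 in young mice (adjusted p = 0.000166). Adcy6, an adenylyl cyclase below the parathyroid hormone receptor, rose by 0.53 (adjusted p = 0.0136) and 0.43 (adjusted p = 0.00158), and the aged rise did not pass with the unmoderated test (0.0557). The vitamin D receptor Vdr rose by 0.37 in young mice (adjusted p = 0.0194), a call lost without mouse 340 or 344, with the unmoderated test (0.0676) and with all arrays in one fit (0.0575). Ctsk, a lysosomal protease, fell by 0.34 in young mice (adjusted p = 0.019), which was lost without mouse 340, with the unmoderated test (0.0602) and with all arrays in one fit (0.0772). Pth1r, the parathyroid hormone receptor and named after its values were seen, fell by 0.26 in young mice (adjusted p = 0.0122). Rxra, the partner of Vdr on DNA, had changes of 0.16 in young and -0.25 in aged mice that did not pass, and these differed by -0.41 (adjusted p = 0.0422). That difference did not pass in 12 of 19 fits without one array (adjusted p up to 0.096), with the unmoderated test (0.0523), robust fitting (0.0571), median centring (0.0534), without mice 33 and 339 together (0.108), or with the mean of its probe sets (-0.19, adjusted p = 0.293).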

How the data were processed

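Snap-frozen kidney gave the RNA for 1 Affymetrix array per mouse. The authors deposited log2 values for 45141 probe sets after background correction and normalization with the RMA algorithm, and its version is not given in the sources used here. Array medians lay between 4.15 and 4.21 in young and between 3.44 and 3.49 in aged mice, so the ages seem to have been normalized separately, and the number of arrays limits the precision. Probe sets were named from the platform annotation: 28898 name 1 gene, 551 more than 1, and the annotation leaves 15692 out. Symbols of 8 members matched RefSeq by gene ID. Promoter sequences are those of RefSeq on GRCm38.p6, and 7 of the 10 genes have one.

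Fits were made in R 4.3.3 with limma 3.58.1 on the deposited log2 values, within each age, and for the difference between ages in one fit of the 4 group means to 19 arrays. Tests were two-sided, with p-values adjusted over all 45141 probe sets by the Benjamini-Hochberg method. Values with an adjusted p up to 0.05 passed, and calls needed a fold change of at least 1.5 as well. Each p-value sets a difference between group means against the spread between single mice within the groups. The mice bear no number shared between the groups. A gene outside the members was taken at its brightest probe set. The shares beside such genes cover all 45141 probe sets, with dim, repeated and unnamed ones among them. Counts of these genes and the shares are therefore not like for like. The members and lists were chosen with earlier results of these data known. Named genes are all member probe sets, up to 4 passing genes of each list and age by size of change, list genes that differ between the ages, and the 3 genes most like Kl and Cyp27b1. The fits were tested on simulated data. Alternatives were an unmoderated test, all arrays in one fit, array weights, variance trend with robust fitting, quantile normalization, median centring, removal of the dimmest 40 percent of probe sets, a fold of 2, an adjusted p of 0.01, the mean of a gene's probe sets and leaving out arrays. Macrophage markers (10 measured) passed as 1 higher and 1 lower in aged and 1 higher and 5 lower in young mice. Brown adipocyte markers (8) passed as 1 and 1, and 3 and 1. Liver markers (9) passed as 0 and 0 (2 and 1 at an unadjusted p of 0.05), and 2 and 1. Other kidney markers (7) passed as 0 and 1, and 0 and 2. The shares over all probe sets were 3.16% higher and 3.32% lower in aged mice, and 10.1% and 9.54% in young mice.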

Additional observations from a re-analysis of the deposited data

Results flagged for a closer look

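In 148 groups of 4 or 5 mice examined, 8 held a mouse set apart from the others by Dixon's criterion, which chance gives in about 5% of groups. For Kl, aged fasted mouse 33 stood at 9.64 (others 9.93 to 9.99), and at the dimmer Kl probe set young ad libitum fed mouse 346 stood at 4.79 (others 4.93 to 4.99). For Cyp27b1, young ad libitum fed mouse 346 stood at 4.69 (others 3.27 to 3.59) and aged fasted mouse 42 at 5.64 (others 3.88 to 4.23). For Slc34a3, aged ad libitum fed mouse 34 stood at 8.67 (others 8.26 to 8.32), and the same mouse had Slc9a3r1 at 11.52 (others 11.20 to 11.23). For Slc20a2 at its dim probe set, young ad libitum fed mouse 350 stood at 4.46 (others 4.33). For Fam20c, aged fasted mouse 39 stood at 6.94 (others 7.33 to 7.46).

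The fasting effect differed between the ages, by the limma test of the difference itself, for Slc20a1 (-0.76), Dusp6 (0.59), Rxra (-0.41) and Atp2b1 (0.50), each value being the aged minus the young log2 fold change. Without one array these calls were lost in 12, 4, 12 and 14 of 19 fits, and with the unmoderated test none of the 4 passed (adjusted p of 0.0899, 0.0562, 0.0523 and 0.077).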

How the results depend on the processing

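Of 90 log2 fold changes followed through the alternatives, 73 kept their side of the threshold in each, 12 fell short of it and 5 came to pass it in some, and 0 that passed changed direction. Among those that did not pass, 11 values changed sign in some alternative with Cyp27b1 in aged mice ranging from -0.33 to 0.16. The aged count of 1 called probe set was 2 with quantile normalization and with median centring, when Kl crossed the 1.5-fold condition, and 1 to 2 without one array. The young count of 3 was 1 with a fold of 2, and 3 to 4 without one array. The count of 1 for the difference between ages was 0 with the unmoderated test and at an adjusted p of 0.01, and 0 to 1 without one array. The 3 further genes that differed became 0 with the unmoderated test and 0 at an adjusted p of 0.01, and 0 to 4 without one array. Among them, Dusp6 lost its call without mouse 350, 339, 340 or 41 (adjusted p up to 0.0644). Rxra kept it without 347, 348, 343, 34, 40, 43 or 42, and Atp2b1 without 36, 37, 40, 43 or 33, one at a time. The cause was not tested. Without mice 33 and 339 together the Slc20a1 difference was -0.85 (adjusted p = 0.00908), and over all its alternatives the adjusted p ran from 0.00581 to 0.192. The paper describes mice matched in pairs by weight and sex before a diet was assigned. The labels give no such pairs for the mice on the arrays. No paired analysis was possible because the groups share no replicate numbers.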

Other observations

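The 28 pairs of the 8 members were correlated over the 19 arrays after each group's mean was taken off, with permutation within groups. None passed Benjamini-Hochberg adjustment, with a lowest adjusted p of 0.294, and the 4 pairs with an unadjusted permutation p under 0.05 for r or rho are given. Kl and Cubn had r = 0.57 (permutation p = 0.0167) and rho = 0.46 (permutation p = 0.0629). Their r was 0.28 without the pair of mice farthest from the median of Kl. Within the ages r was 0.48 in young and 0.65 in aged mice. Cyp24a1 and Slc34a3 had r = -0.54 (permutation p = 0.0309) and rho = -0.52 (permutation p = 0.0333), with r = -0.53 without the pair of mice farthest from the median of Cyp24a1, -0.66 in young and -0.38 in aged mice. Fgfr1 and Cubn had r = 0.52 (permutation p = 0.0315) and rho = 0.53 (permutation p = 0.0302), with r = 0.35 without the pair of mice farthest from the median of Fgfr1, 0.83 in young and 0.24 in aged mice. Cyp27b1 and Slc34a3 had r = 0.46 (permutation p = 0.0632) and rho = 0.57 (permutation p = 0.0196), with r = 0.42 without the pair farthest from the median of Cyp27b1, 0.55 in young and 0.40 in aged mice.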
